A study of Lytechinus variegatus with 9 samples.

Results

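RNA of embryos treated with K02288 was compared directly with RNA of embryos treated with axitinib, so that genes that part inhibition of the BMP receptors from inhibition of the VEGF receptor could be described without passing through a control. The comparison used 6 of the 9 libraries of the series, 3 of each drug, paired by the mating from which the embryos came, and all 16197 genes of 26814 that had enough counts in these libraries to be tested. The K02288 embryos were held in 1 µM K02288, which blocks the type I receptors for BMP, and the axitinib embryos in 75 nM axitinib, an inhibitor of the VEGF receptor. The DMSO embryos received the solvent alone in a volume matched to the drugs, and their 3 libraries are shown only to tell which drug lay away from the untreated level. The embryos of every library were wild type Lytechinus variegatus, a sea urchin, treated in artificial seawater starting between 18 and 20 hpf, by which time the spicule rudiments were tri-radiate, and collected as late plutei at 2 dpf and 21 °C. Each library held poly-A RNA of many whole embryos from 1 mating, and each of the 3 matings supplied 1 library per treatment. The drugs were used at different concentrations, so the values below compare these treatments and not equal degrees of inhibition.

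BMP ligands of the TGF-beta superfamily bind type I and type II receptor kinases, which phosphorylate Smad1/5/8, and the sea urchin type I BMP receptors are Alk1/2 and Alk3/6. Nodal, another ligand of the superfamily, acts through Alk4/5/7 and Smad2/3, and in the sea urchin Nodal and BMP pattern the ventral and dorsal sides and later the left-right axis. VEGF acts through a receptor tyrosine kinase (RTK), and RTKs commonly signal through the kinase ERK to ETS transcription factors. In sea urchins the VEGF receptor is carried by the primary mesenchyme cells (PMCs), the cells that secrete the skeleton.

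Library totals ran from 11469191 to 11565219 counts with K02288, from 9359212 to 10921655 with axitinib and from 9942452 to 11815263 with DMSO, and 3 counts were taken as the limit for a gene without counts in a library. In log2 CPM of the 6 drug libraries the first and second components, 39.4% and 34.6% of the variance, lay by mating, and the third, 14.8%, parted all K02288 libraries from all axitinib libraries. Markers of gut, ciliated ectoderm, neurons, muscle, pigment cells and skeletogenic cells were all present, and no marker gene was at 0 in all 9 libraries. In whole-embryo RNA, fewer cells of a type and less RNA per cell cannot be told apart.

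K02288 and axitinib embryos differed in 1321 of the 16197 genes, 8.16%, at an edgeR quasi-likelihood adjusted p under 0.05 with the mating as a term. Of these, 502 genes (3.10% of those tested) were lower and 819 (5.06%) higher in K02288 than in axitinib, and 1311 had the same direction in all 3 matings. The 3 libraries of each drug did not overlap for 718 of the called genes, and for 10.1% of all genes tested. The typical difference was modest, with a median of 1.51-fold for the genes that were lower in K02288 and 1.58-fold for those that were higher. A difference of at least 2-fold was reached by 108 genes that were lower and 240 that were higher, and one of at least 4-fold by 28 and 62 genes. The log2 difference given throughout is K02288 over axitinib, and its median over all genes tested was -0.01. Chromosome positions are those of the deposited table, which for all 26814 genes equal those of the RefSeq annotation of the Lvar_3.0 assembly. Without the mating in the fit, 25 genes passed (5 lower and 20 higher), each of them also called with it. The biological coefficient of variation, the spread between libraries beyond counting error, stood at 0.119 in the fit with matings and at 0.338 in the fit without them. Among the named genes, those that also passed in edgeR without the mating term were nodal, pitx, the procathepsin L-like gene, the uncharacterized LOC121431768 and LOC121411681, the GPHB5-like, BMP2-like, ETV1-like, sprouty 3-like, Wnt-3-like, APCDD1-like, pappalysin-1-like, fibrillin-1-like LOC121410756, glycine transporter 1-like, MSP130-like and snaclec-like genes and a pair of SRCR genes. These are 18 of the 141 named genes that were called, and DESeq2 without the mating called 74 of the 141.

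**Figure D1:**
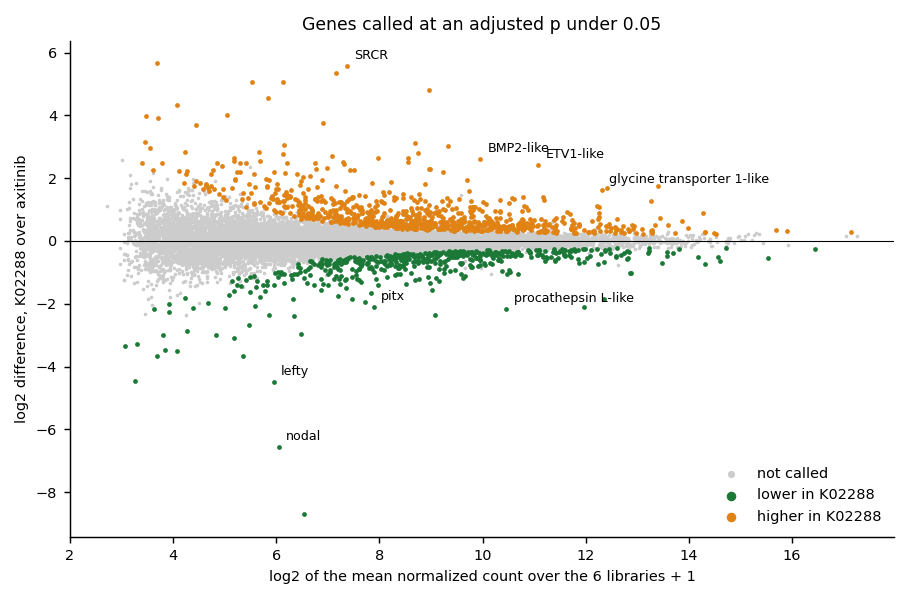
Each point is 1 of the 16197 genes tested, with its log2 mean normalized count over the 6 drug libraries on the x axis and its log2 difference, K02288 over axitinib, on the y axis. The 502 genes called lower in K02288 (green) and the 819 called higher (orange) lie on both sides of 0 at all levels, and nodal and lefty are among the lowest points.

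Set beside DMSO, the axitinib libraries were more often the ones that had moved. Of the 1321 genes, axitinib lay farther from the DMSO mean in 677 (51.2%) and K02288 in 247 (18.7%), while in 397 (30.1%) DMSO lay between the drugs with neither distance over 2 times the other. Among the genes lower in K02288, axitinib was the farther drug in 276 of 502 and K02288 in 79. Among those higher in K02288, the numbers were 401 and 168 of 819. These are descriptions without a test, and they depend on the rule: when all 3 matings had to give the same side, 386 genes were assigned to axitinib, 89 to K02288 and 28 to neither, and 818 had no single side. In fits of each drug against the same DMSO libraries, 469 of 16288 genes (2.88%) were called with K02288 (1.05% lower and 1.83% higher than DMSO) and 998 of 16035 (6.22%) with axitinib (3.44% lower and 2.79% higher).

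Ligands of the TGF-beta superfamily parted the drugs in both directions. Of 11 ligand genes tested, 4 were lower and 3 higher in K02288, 63.6% against 8.16% of all genes, with a median log2 difference of -0.22 against -0.01 for all genes tested. The list was drawn by words in the gene descriptions: it holds a BMP1 homolog gene (LOC121405581, 0.30, called higher), which encodes a protease and not a ligand, and it lacks bmp2/4 and bmp5/8, which are given separately. Nodal, which in the sea urchin patterns the ventral side and later the left-right axis, was nearly without counts in K02288. nodal (LOC121431988, chromosome 18, 12693859 to 12697694) had 0, 3.83 and 0 normalized counts in the K02288 libraries of matings 1, 2 and 3, against 129, 156 and 101 in the axitinib libraries and 26.1, 99.9 and 37.7 in DMSO. All K02288 libraries lay below all others, and axitinib lay above DMSO in each mating. The log2 difference was -6.56 ± 0.50 (SE implied by the edgeR test, not the spread between matings; n = 3 matings, edgeR adjusted p = 1.01e-06). Since the K02288 libraries held 4 counts of nodal in all, this fitted value depends on the prior count and was -5.34 with a prior count of 2. As summed counts the axitinib to K02288 ratio was 102, with a 95% interval from 39.6 to 377 that covers counting error only. Without replicate 2, the mating with those 4 counts, the fitted log2 difference was -9.83.

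lefty (LOC121418144, chromosome 7, 624391 to 627492), which encodes the secreted antagonist that Nodal induces, had 0, 12.4 and 3.76 normalized counts with K02288, against 81.9, 171 and 95.8 with axitinib and 18.5, 135 and 30.4 with DMSO. It followed nodal in each mating, with K02288 lowest and axitinib highest, and its log2 difference was -4.50 ± 0.43 (edgeR adjusted p = 8.11e-06), or -5.49 without replicate 2. pitx (LOC121431895, chromosome 18, 23796465 to 23825520), a homeobox factor that acts downstream of Nodal in left-right patterning, had 90.4, 83.3 and 91.1 normalized counts with K02288, against 371, 433 and 345 with axitinib and 397, 406 and 469 with DMSO. Here the axitinib and DMSO libraries overlapped and only the K02288 libraries stood apart (-2.11 ± 0.15, edgeR adjusted p = 3.37e-07). The gene taken here as cripto, the Nodal co-receptor gene, is LOC121423938, which its gene description leaves uncharacterized. It went the other way, with 43.3, 80.4 and 134 normalized counts in K02288, against 3.15, 24.1 and 17.8 in axitinib and 19.6, 37.1 and 60.7 in DMSO (log2 difference 2.55 ± 0.36, edgeR adjusted p = 0.000326). The cripto difference was 3.14 without replicate 2. The receptor gene alk4/5/7 and smad2/3, which carry the Nodal signal inside the cell, had log2 differences of -0.03 ± 0.0897 and -0.14 ± 0.12 and were not called.

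A BMP2-like gene (LOC121432040, chromosome 18, 7404649 to 7414829), which is not the bmp2/4 gene, was much higher in K02288. It had 2087, 929 and 2131 normalized counts with K02288, against 248, 289.8 and 262 with axitinib and 329, 293 and 475 with DMSO. The K02288 libraries lay above all others, and axitinib lay below DMSO in each mating (2.60 ± 0.20, edgeR adjusted p = 1.15e-06). bmp2/4 itself (LOC446159) had 659, 641 and 609.7 normalized counts with K02288, against 645, 544 and 495 with axitinib and 995, 760.2 and 695 with DMSO, and was not called (0.19 ± 0.0992, edgeR adjusted p = 0.335). bmp5/8 (LOC121431669) was also not called (0.29 ± 0.0990, edgeR adjusted p = 0.10). The activin-type ligand gene mstnB-like (LOC121426703, chromosome 13, 33699770 to 33709836) was higher with each drug than with DMSO, and more so with axitinib. It had 135, 71.8 and 47.0 normalized counts with K02288, against 392, 178 and 153 with axitinib and 34.8, 26.5 and 10.5 with DMSO (-1.51 ± 0.16 between the drugs, edgeR adjusted p = 2.37e-05). The other ligand genes called, named after their values were seen, were both growth/differentiation factor 8-like: LOC121423913 differed by -0.66 (edgeR adjusted p = 0.0246), and LOC121424566, at 24, 20.1 and 13.2 normalized counts with K02288, against 1.05, 5.02 and 1.11 with axitinib and 14.1, 3.48 and 1.05 with DMSO, by 2.95 (edgeR adjusted p = 0.0139). The count of ligand-list genes higher in K02288 was 1 without replicate 1 and 1 without replicate 3, and the BMP2-like gene stayed called in each of these fits.

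**Figure D2:**
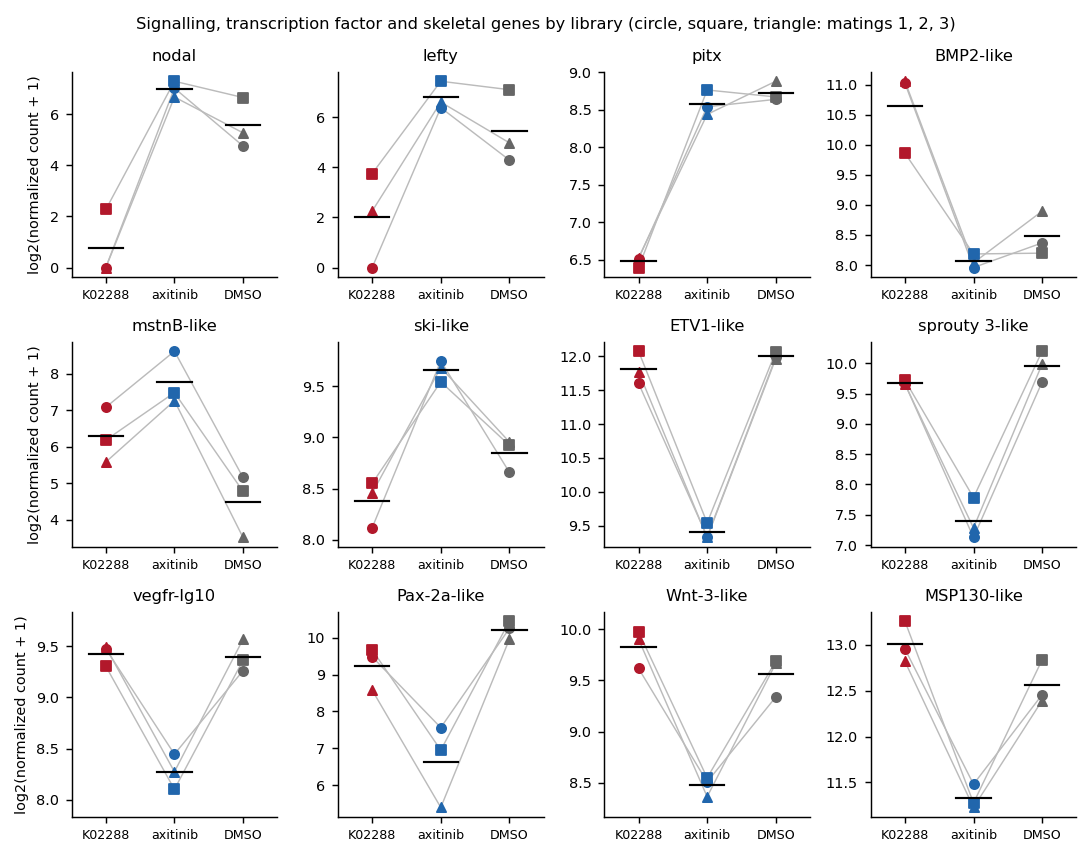
Each panel gives 1 gene, with log2(normalized count + 1) on the y axis and the K02288, axitinib and DMSO libraries from left to right; symbols are matings, grey lines join the libraries of a mating and black bars are means of 3 libraries. For nodal, lefty, pitx and the BMP2-like gene the K02288 libraries stand apart, for ETV1-like, sprouty 3-like, vegfr-Ig10, Pax-2a-like and Wnt-3-like the axitinib libraries do.

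Of 27 genes for TGF-beta antagonists, receptors and Smads, 4 were lower and 5 higher in K02288 (33.3% called, median log2 difference -0.03). A pair of neighbouring genes for Ski, a co-repressor that binds Smads, were lower in K02288. LOC121427827 (LOC121427827, chromosome 14, 7519599 to 7547604) had 277, 374 and 350.4 normalized counts with K02288, against 858, 745 and 821 with axitinib and 403, 484 and 495 with DMSO. DMSO lay between the drugs in each mating, and the log2 difference was -1.28 ± 0.12 (edgeR adjusted p = 6.62e-06). The other, LOC121427722, differed by -1.39 ± 0.18 (edgeR adjusted p = 0.000126). smadIP (LOC121411537), a zinc finger homeobox repressor that binds Smads, had 697, 915 and 579.6 normalized counts with K02288, against 1341, 1327 and 1048 with axitinib and 1405, 1270.2 and 824 with DMSO. The K02288 libraries lay below the axitinib library of the same mating (-0.78 ± 0.0984, edgeR adjusted p = 0.000119).

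The genes chordin and bmper, for extracellular regulators of BMP ligands, were higher in K02288. chordin (LOC121427607), which binds BMP and keeps it from its receptors, had 751, 726 and 658 normalized counts with K02288, against 443, 372 and 401 with axitinib and 719, 538 and 490.1 with DMSO (0.81 ± 0.10, edgeR adjusted p = 9.60e-05). bmper (LOC121424882) had 647, 638 and 407, against 406, 405 and 261 with axitinib and 748, 667 and 697 with DMSO (0.66 ± 0.10, edgeR adjusted p = 0.000578). For bmper each drug lay below DMSO in every mating and axitinib lay lower, at a log2 difference from DMSO of -1.0. The gene for repulsive guidance molecule A, in vertebrates a BMP co-receptor (LOC121415566), had 4926, 3825 and 4644 normalized counts with K02288, against 2914, 2997 and 3164 with axitinib and 3072, 2911 and 3185 with DMSO. There the K02288 libraries lay above all others (0.55 ± 0.0827, edgeR adjusted p = 0.000497). The receptor genes alk3/6 and bmpr2 and the gene acvr2, and the receptor Smad gene smad1/5/8, had log2 differences of -0.08 ± 0.0822, -0.15 ± 0.0988, 0.05 ± 0.0761 and -0.09 ± 0.31 and were not called. alk1/2 (LOC121423221) was called at 0.31 ± 0.0876 (edgeR adjusted p = 0.0416) but not without any 1 of the matings, where it was between 0.27 and 0.35, nor in DESeq2 with the mating or limma.

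Genes of RTK and ERK signalling that parted the drugs were mostly lower in axitinib. Of 40 genes for RTK ligands, receptors and ERK pathway outputs, 10 were higher and 2 lower in K02288 (30.0% called, median log2 difference 0.13), and for 9 of the 10 higher genes axitinib was the drug farther from DMSO. ETV1-like (LOC121410751, chromosome 3, 30632985 to 30659456), an ETS factor that ERK activates in vertebrates, gave the lowest p of all genes tested. It had 3109, 4319 and 3502 normalized counts with K02288, against 646, 744 and 640.2 with axitinib and 4055, 4297 and 4000.4 with DMSO. The axitinib libraries were a narrow group below all others, and the log2 difference was 2.42 ± 0.0857 (edgeR adjusted p = 8.22e-10). The next gene along the chromosome is ETV4-like (LOC121410752), named after its values were seen, which differed by 2.51 (edgeR adjusted p = 1.49e-05), or 2.01 without replicate 1 and 3.08 without replicate 2.

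sprouty 3-like (LOC121430850, chromosome 1, 12367621 to 12382002) encodes a feedback inhibitor of RTK signalling. It had 811, 844 and 807 normalized counts with K02288, against 139, 219 and 155 with axitinib and 826, 1176 and 1014 with DMSO, and the drugs did not overlap (2.28 ± 0.13, edgeR adjusted p = 3.37e-08). A sprouty-related gene, LOC121418204, whose product also restrains the Ras to ERK step, had 1465, 1730.3 and 1578 normalized counts with K02288, against 763, 906 and 795 with axitinib and 1697, 1712 and 1710.1 with DMSO (0.95 ± 0.0844, edgeR adjusted p = 3.70e-06). The VEGF receptor gene vegfr-Ig10 (LOC121408625, chromosome 1, 20230039 to 20283425) had 709.6, 631 and 718 normalized counts with K02288, against 347, 274 and 308 with axitinib and 612, 657 and 757 with DMSO. K02288 and DMSO overlapped, and axitinib lay below both in each mating (1.15 ± 0.10, edgeR adjusted p = 3.80e-06). ets1 (LOC121419770), an ETS factor of the skeletogenic cells, had 455, 468 and 349, against 263, 225 and 193 with axitinib and 461, 549.8 and 547 with DMSO (0.90 ± 0.12, edgeR adjusted p = 0.000146). The ETS gene erg (LOC121419884) leaned the other way and was not called (-0.51 ± 0.15, edgeR adjusted p = 0.0549). SOCS2-like (LOC121423305), a suppressor of cytokine receptor signalling, was 1.3 ± 0.0769 higher on the log2 scale in K02288 (edgeR adjusted p = 7.39e-08). The number of these list genes lower in K02288 was 1 without replicate 1, 3 without replicate 2 and 1 without replicate 3.

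Wnt pathway genes that parted the drugs did so in 1 direction. Of 35 tested, 11 were higher in K02288 and 0 lower (31.4% called, median log2 difference 0.19), and 13 were higher and 1 lower at p of at most 0.05 before adjustment, which 10.4% of all genes were in the higher and 9.19% in the lower direction. DESeq2 with the mating called 9 higher and 0 lower. Both ligands and inhibitors were among the 11. Wnt-3-like (LOC121426221, chromosome 1, 86059056 to 86063345), a ligand, had 784, 1004 and 955 normalized counts with K02288, against 363, 373 and 328 with axitinib and 646, 823 and 811 with DMSO (1.36 ± 0.11, edgeR adjusted p = 1.25e-06). The axitinib libraries lay below all K02288 and DMSO libraries. Genes for Wnt inhibitors, the membrane protein gene APCDD1-like (LOC121406853) and the secreted protein genes WIF1-like (LOC121411384) and dickkopf 2-like (LOC121432167), were lower in axitinib too. APCDD1-like had 463, 489 and 449 normalized counts with K02288, against 126, 117 and 139 with axitinib and 397, 448 and 404 with DMSO (1.88 ± 0.13, edgeR adjusted p = 3.22e-07). WIF1-like had 313, 169 and 213 with K02288, against 67.2, 19.1 and 25.6 with axitinib and 409, 318 and 426 with DMSO (2.71 ± 0.21, edgeR adjusted p = 1.22e-06). The dickkopf 2-like gene differed by 1.33 ± 0.18 (edgeR adjusted p = 0.000265). For these 4 genes axitinib was the drug farther from DMSO in each mating. Of all 11 called, 5 were assigned to axitinib and 1 to K02288 as the farther drug. For the other 5, DMSO lay between the drugs with neither distance over 2 times the other.

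Transcription factors of the homeobox and forkhead classes were called in both directions. Of 73 homeobox and paired box genes, 13 were lower and 20 higher in K02288 (45.2% called, median log2 difference 0.21); the counts were 13 and 13 without replicate 1 and 7 and 12 without replicate 3. Of 43 forkhead, Sox, T-box, GATA, Runx and ETS genes, 4 were lower and 16 higher (46.5%, median 0.26). Basic helix-loop-helix and Kruppel-like factors had 1 lower and 7 higher of 26 (30.8%, median 0.19), with 4 higher without replicate 3 and 0, 2 and 2 lower without replicates 1, 2 and 3. Nuclear receptors, at 2 lower and 1 higher of 26 (11.5%), and Notch and Hedgehog genes, at 2 lower and 2 higher of 42 (9.52%), were close to the share of all genes. Without replicate 1 the nuclear receptors had 2 higher and the Notch and Hedgehog genes 1 lower and 1 higher, and without replicate 3 the Notch and Hedgehog genes had 0 higher.

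For some factors the K02288 mean lay farther from DMSO than the axitinib mean. Beside pitx these included hox1/hox7 (LOC121410693, chromosome 3, 28369260 to 28382814), with 459.6, 539.8 and 364 normalized counts in K02288, against 842, 1008 and 765 in axitinib and 736, 667 and 715 in DMSO (-0.95 ± 0.0963, edgeR adjusted p = 1.49e-05). K02288 lay below all other libraries. tbx2/3 (LOC446194), a T-box factor of dorsal ectoderm in the sea urchin, had 1998, 2578 and 1382 with K02288, against 3099.9, 3257 and 2083 with axitinib and 3317, 3147 and 1923 with DMSO (-0.52 ± 0.0818, edgeR adjusted p = 0.000728). The tbx2/3 libraries of the drugs overlapped across matings, and the difference showed within each mating. hox9 (LOC121410695), next to hox1/hox7, was low in all libraries, with 4.81, 5.74 and 0.940 normalized counts with K02288, against 25.2, 14.1 and 59.0 with axitinib and 25, 6.19 and 22.0 with DMSO (-2.88 ± 0.68, edgeR adjusted p = 0.0148). The hox9 difference was -3.73 without replicate 2, and the call was lost without replicate 3, where it was -1.83. A tailless-type nuclear receptor gene, NR2E1-like (LOC121414504), was instead higher in K02288, with 334, 233 and 333, against 172, 181 and 156 with axitinib and 182, 144 and 179 with DMSO (0.80 ± 0.15, edgeR adjusted p = 0.00348).

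For other factors the axitinib mean lay farther from DMSO. Pax-2a-like (LOC121432245, chromosome 18, 19969777 to 20007926), a paired box factor, had 713, 813 and 380.4 normalized counts with K02288, against 188, 123 and 41.2 with axitinib and 1216, 1393 and 992 with DMSO. Each drug lay below DMSO in every mating, and axitinib lay far lower (2.52 ± 0.18 between the drugs, edgeR adjusted p = 4.77e-07). myoR2 (LOC121430479), a helix-loop-helix factor gene that the study places in ventral PMCs, had 163, 221 and 118 with K02288, against 55.6, 56.4 and 39.0 with axitinib and 171, 286 and 175 with DMSO (1.72 ± 0.19, edgeR adjusted p = 3.68e-05). single-minded 2-like (LOC121425295) differed by 1.39 ± 0.15 (edgeR adjusted p = 3.13e-05). barH-like 1 (LOC121428731, chromosome 15, 2560495 to 2582021) was in contrast higher in axitinib than in DMSO in each mating, with 20.2, 12.4 and 19.7 normalized counts in K02288, against 132, 38.2 and 308 in axitinib and 30.4, 24.8 and 27.2 in DMSO. Its axitinib libraries spread widely over the matings and lay above every K02288 library (-2.97 ± 0.34, edgeR adjusted p = 4.53e-05; -2.25 without replicate 3).

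A last group had DMSO in the middle. A pair of Runx1-like genes, LOC121414003 (LOC121414003, chromosome 4, 38385953 to 38441198) and LOC121413870, encode Runt-domain factors. LOC121414003 had 485, 759.9 and 2678 normalized counts with K02288, against 204, 225 and 789 with axitinib and 229, 431 and 1224 with DMSO (1.61 ± 0.11, edgeR adjusted p = 4.34e-07). LOC121413870 had 340.4, 330.2 and 630.3 with K02288, against 101, 117 and 229 with axitinib and 218, 211 and 293 with DMSO (1.56 ± 0.13, edgeR adjusted p = 1.61e-06). In each mating both genes ran from axitinib, the lowest, over DMSO to K02288, the highest. FoxD3-like (LOC121423994) did the same (0.94 ± 0.0934, edgeR adjusted p = 1.12e-05), and NR5A2-like (LOC121428489), a nuclear receptor gene, ran the opposite way in each mating, with 96.2, 90.9 and 70.5 normalized counts in K02288, against 432, 263 and 307 in axitinib and 205, 177 and 124 in DMSO (-1.94 ± 0.16, edgeR adjusted p = 1.96e-06).

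**Figure D3:**
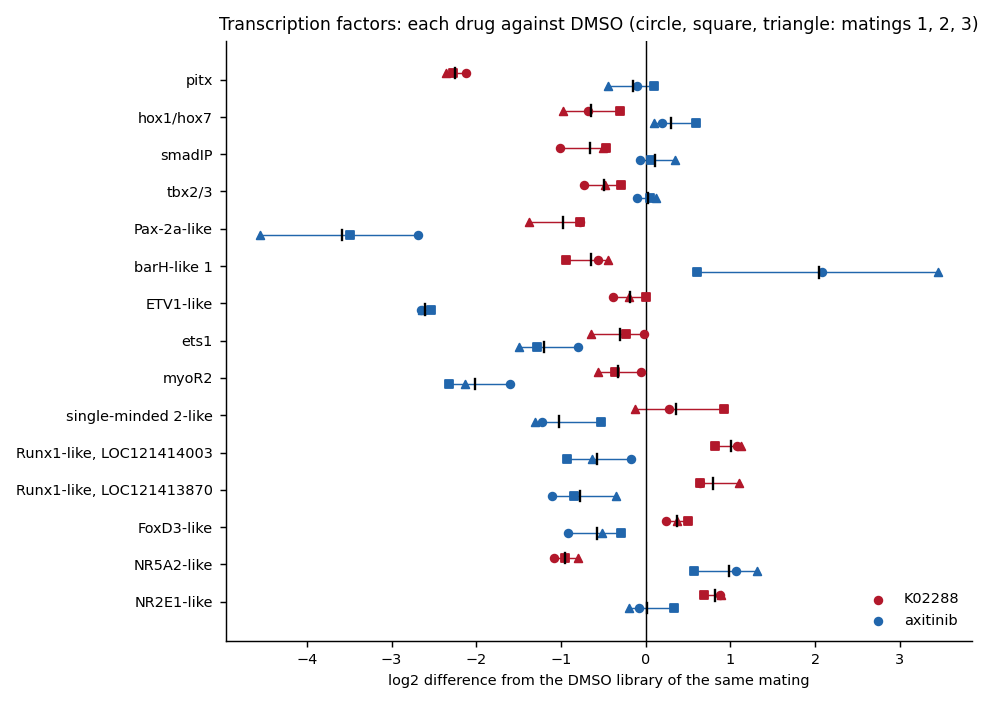
For 15 transcription factor genes, the x axis gives the log2 difference of each K02288 library (red, upper row) and each axitinib library (blue, lower row) from the DMSO library of the same mating, with 1 symbol per mating and black bars for the mean. For pitx and tbx2/3 the K02288 points lie away from 0 and the axitinib points near it, for ETV1-like the reverse holds, and for the Runx1-like genes the drugs lie on opposite sides of 0.

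Of 45 genes of BMP, Nodal and VEGF signalling, embryonic patterning and the skeleton, 11 were lower and 12 higher in K02288 than in axitinib, and 22 were not called. These genes were chosen with the study's text and supplements and earlier results of these libraries in view and are no independent sample. Genes of the skeletogenic cells were called in both directions. Of 301 PMC-enriched genes, from published single-cell data, 14 were lower and 36 higher in K02288 (16.6% called, median log2 difference 0.04), with 9, 10 and 7 lower without replicates 1, 2 and 3 in turn. Among 26 genes for spicule matrix, MSP130 and other biomineral proteins, 1 was lower and 3 higher (15.4%, median -0.05), with 3 lower without replicate 2. The lower gene, named after its values were seen, was carbonic anhydrase 14-like LOC121430996 (-0.52, edgeR adjusted p = 0.000518), an enzyme gene. The summed level of 19 skeletogenic marker genes ran from 35423 to 44353 normalized counts in K02288, from 24311 to 34339 in axitinib and from 46699 to 57363 in DMSO. Without 2 of these genes, sm30a and MSP130-like LOC121427215, left out after seeing the data, the sums were 15672, 15544 and 13257 in K02288, 16185, 16329 and 13484 in axitinib and 21014, 17664 and 19495 in DMSO. The other 17 markers together were thus slightly lower in K02288 than in axitinib in each mating.

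MSP130-like LOC121427215 (LOC121427215, chromosome 14, 17199073 to 17220319), a member of the PMC cell surface glycoprotein family, had 7936, 9787 and 7225 normalized counts with K02288, against 2855, 2478 and 2396 with axitinib and 5615, 7308 and 5374 with DMSO. K02288 lay above DMSO and axitinib below it in each mating (1.68 ± 0.0904, edgeR adjusted p = 2.39e-08). The spicule matrix genes sm29 and sm30a ran in opposite directions. sm29 (LOC121405931), which the lists used here hold among the lectins and the PMC-enriched genes, was lower in K02288, with 3255, 3233 and 2751, against 5108, 5179 and 4399 with axitinib and 6064, 3884 and 5009.9 with DMSO (-0.67 ± 0.0696, edgeR adjusted p = 1.81e-05). sm30a (LOC121406020) was higher in K02288, with 20248, 19022 and 14941, against 15299, 12204 and 8431 with axitinib and 30734, 21728 and 22616 with DMSO (0.62 ± 0.0767, edgeR adjusted p = 9.38e-05). For sm30a both drugs lay below DMSO in every mating and axitinib lay lowest. p16 (LOC121416200), a biomineralization gene, had 979.8, 1588 and 1208 with K02288, against 662, 588 and 517 with axitinib and 1094, 1394 and 937 with DMSO (1.08 ± 0.13, edgeR adjusted p = 9.51e-05). The snaclec-like C-type lectin gene (LOC121405990, chromosome 19, 7636277 to 7648265) was also on the PMC-enriched list, with 835, 683 and 704 normalized counts in K02288, against 126, 68.4 and 64.6 in axitinib and 594, 463 and 527 in DMSO (3.13 ± 0.14, edgeR adjusted p = 4.77e-09). Its axitinib libraries lay below all others.

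Many skeletal genes were not called between the drugs. The MSP130 genes msp130rel1 and msp130rel3 had log2 differences of -0.07 ± 0.0952 and 0.23 ± 0.15, p58a and p58b of 0.22 ± 0.0740 and 0.05 ± 0.0966, and none was called. The p58a libraries of the drugs did not overlap, and K02288 was higher in each mating (edgeR adjusted p = 0.0853). sm30f (LOC121406359) could not be told apart at this precision (0.30 ± 0.32), and its sign turned to -0.25 without replicate 3. Against the same DMSO libraries, msp130rel1, msp130rel3, p58b and sm30f were called lower with each drug. otop2L, a proton channel gene, and coro7, an actin regulator gene, had differences of -0.40 ± 0.18 and -0.19 ± 0.0942 and were not called. The skeletogenic homeobox gene alx1 (LOC447794) was called at -0.44 ± 0.12 (edgeR adjusted p = 0.0333), but not without replicate 2 (-0.26) or replicate 3 (-0.47), nor in DESeq2 with the mating or limma. The haematopoietic-type factor genes gata3, scl and hhex and the homeobox gene prox1 were not called, with log2 differences between -0.41 (scl) and 0.19 (hhex). The gene taken as scl, LOC121423567, is uncharacterized by its gene description. p19L (LOC121428634), a biomineralization gene, was called at 0.27 ± 0.0754 but not without replicate 1 or replicate 3, nor in DESeq2 with the mating, limma or the fit of all 9 libraries.

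Metalloproteinases, which cut extracellular matrix, and their inhibitors were mostly higher in K02288 where called. Of 45 tested, 3 were lower and 18 higher in K02288 (46.7%, median log2 difference 0.26), with axitinib farther from DMSO in 9 of the 18 and K02288 in 4. The gelatinase-like gene LOC121409164 (LOC121409164, chromosome 2, 79030884 to 79052928) had 159.6, 103 and 226 normalized counts with K02288, against 48.3, 31.2 and 32.3 with axitinib and 171, 133 and 217 with DMSO, with axitinib below all others (2.08 ± 0.24, edgeR adjusted p = 4.80e-05). An inhibitor gene, TIMP3-like LOC121410441 (LOC121410441, chromosome 3, 19909960 to 19913901), had 139, 205 and 195 with K02288, against 22.0, 29.2 and 47.9 with axitinib and 96.8, 158 and 58.6 with DMSO (2.47 ± 0.22, edgeR adjusted p = 3.43e-06). The adjacent tested gene, TIMP1-like LOC121410437, ran the opposite way (-0.79 ± 0.0999, edgeR adjusted p = 0.000115), with axitinib above DMSO in each mating. The proteinase gene MMP2-like LOC121431984 was also lower in K02288 (-1.07 ± 0.13, edgeR adjusted p = 9.60e-05). mmp24 was called at -0.40 ± 0.11 but not without replicate 1 (-0.32) or replicate 2 (-0.33), nor in DESeq2 with the mating, limma or the fit of all 9 libraries, and mmp16 was not called (-0.20 ± 0.19). pappalysin-1-like (LOC121428963, chromosome 15, 1796529 to 1826285), in vertebrates a metalloproteinase that cuts binding proteins of insulin-like growth factors, had 328, 209 and 298 normalized counts with K02288, against 1.05, 7.04 and 12.2 with axitinib and 180.5, 245 and 292 with DMSO. It was nearly lost in axitinib and overlapped DMSO in K02288 (5.34 ± 0.33, edgeR adjusted p = 1.03e-07; 4.71 without replicate 1 and 5.96 without replicate 3).

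Structural matrix genes followed at lower shares. Of 93 collagen, laminin, fibrillin and integrin genes, 5 were lower and 16 higher in K02288 (22.6%, median 0.15), with 8 lower without replicate 2. fibrillin-1-like LOC121410756 (LOC121410756, chromosome 3, 31012526 to 31042057), a microfibril protein gene, had 926, 910.1 and 1611 normalized counts with K02288, against 98.7, 196 and 121 with axitinib and 587, 735 and 896 with DMSO. In each mating K02288 lay above DMSO and axitinib far below it (3.02 ± 0.20, edgeR adjusted p = 2.76e-07). A collagen alpha-1(I)-like gene, LOC121428996, ran the other way, with 309.6, 177 and 383 in K02288, against 698, 541 and 902 in axitinib and 447, 286 and 620.0 in DMSO (-1.33 ± 0.11, edgeR adjusted p = 2.43e-06). Of 67 hyalin, fibropellin and arylsulfatase genes, which include coat proteins of the embryo's surface, 3 were lower and 8 higher (16.4%), with 1 lower without replicate 1. arylsulfatase-like LOC121411879 had 2513, 2872 and 1199.6 normalized counts with K02288, against 931, 1131 and 477 with axitinib and 2021, 2251 and 1710.1 with DMSO (1.37 ± 0.0828, edgeR adjusted p = 9.14e-08). The ZP domain gene LOC121415619 differed by 1.75 ± 0.13 (edgeR adjusted p = 5.39e-07), with axitinib below and K02288 above DMSO in each mating. A transglutaminase-like gene, LOC121410086, whose product cross-links proteins, differed by 1.09 ± 0.0739 (edgeR adjusted p = 2.84e-07).

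**Figure D4:**
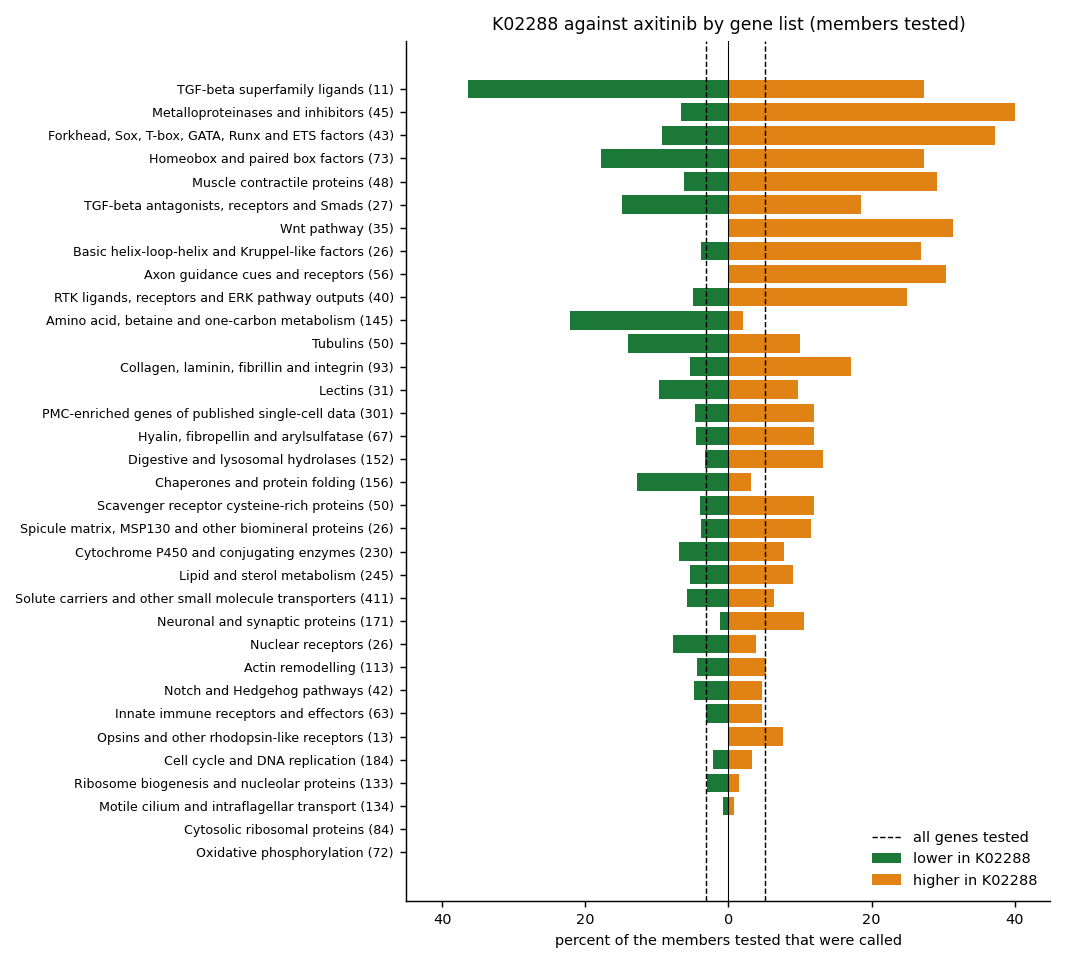
Bars give, for each of 34 gene lists, the percent of its tested members that were called lower (green, to the left) or higher (orange, to the right) in K02288 than in axitinib, with the number tested in brackets; dashed lines mark 3.10% and 5.06%, the shares over all genes tested. Ligands, metalloproteinases and transcription factors stand at the top, and oxidative phosphorylation and cytosolic ribosomal proteins have no bar.

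Axon guidance genes that parted the drugs were also higher in K02288. Of 56 cues and receptors, 17 were higher and 0 lower (30.4%, median 0.21), with 21 higher and 0 lower before adjustment (p of at most 0.05) and 13 higher and 0 lower in DESeq2 with the mating. Before adjustment, 10.4% of all genes tested were higher and 9.19% lower. slit 1-like LOC121425538 (LOC121425538, chromosome 12, 19650151 to 19739720), a repulsive cue, had 1798, 1721 and 2119 normalized counts with K02288, against 1015, 923 and 1146 with axitinib and 1399, 1308 and 1347 with DMSO. All K02288 libraries lay above and all axitinib libraries below DMSO (0.87 ± 0.0815, edgeR adjusted p = 6.67e-06). roundabout 1-like LOC121420473, a slit receptor gene, had 304, 327 and 919 with K02288, against 203, 124 and 494 with axitinib and 496, 299.7 and 928 with DMSO (0.94 ± 0.14, edgeR adjusted p = 0.000381). teneurin-3-like LOC121409056 and plexin-A2-like LOC121411870, genes of an adhesion protein and a semaphorin receptor, differed by 0.90 ± 0.0968 and 0.79 ± 0.11 (edgeR adjusted p = 2.72e-05 and 0.000216).

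Of 171 neuronal and synaptic genes, 2 were lower and 18 higher in K02288 (11.7%, median 0.11), with 5 lower without replicate 1, and 13 of the 18 had axitinib farther from DMSO. A run of 3 adjacent tested glutamate receptor genes on chromosome 5 was higher in K02288, by 0.90 to 1.40. The third of them along the chromosome, glutamate receptor 1-like LOC121415638, was named after its values were seen. glutamate receptor 2-like LOC121415636 (LOC121415636, chromosome 5, 18580727 to 18598969) had 1571, 5934 and 2429 normalized counts with K02288, against 648, 2377 and 805 with axitinib and 1840.4, 4218 and 1894 with DMSO (1.40 ± 0.0855, edgeR adjusted p = 1.02e-07). The matings differed more than the drugs here, and the K02288 library was the higher of the pair in each mating. glutamate receptor 1-like LOC121415635 differed by 0.90 ± 0.0917 (edgeR adjusted p = 1.57e-05). neurotrypsin-like LOC121413969, a protease gene, was instead lower in K02288, with 1222, 982 and 1023, against 2699, 1975 and 2008 with axitinib and 2055, 1207 and 1614 with DMSO (-1.04 ± 0.0818, edgeR adjusted p = 1.22e-06). Summed over 6 neuron marker genes, the level ran from 5806 to 6084 in K02288, from 6009 to 6433 in axitinib and from 6180 to 6760 in DMSO, and none of the 6 was called. A rhodopsin-like gene, LOC121432227, was the 1 opsin-type receptor gene called of 13 (2 without replicate 1), with 43.3, 73.7 and 62.9 normalized counts in K02288, against 5.25, 0 and 5.57 in axitinib and 91.3, 84.0 and 173 in DMSO (4.03 ± 0.58, edgeR adjusted p = 0.000349; 4.64 without replicate 1 and 3.25 without replicate 2).

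Genes for muscle contractile proteins were more often higher in K02288. Of 48 tested, 14 were higher and 3 lower (35.4%, median 0.23), with 9 higher without replicate 3. For 10 of the 14, DMSO lay between the drugs with neither distance over 2 times the other. synaptopodin 2-like LOC121431749 (LOC121431749, chromosome 18, 12138616 to 12172094) had 1288, 1099 and 1299 normalized counts with K02288, against 603, 527 and 599 with axitinib and 978, 948 and 1072 with DMSO, without overlap among the 3 treatments (1.09 ± 0.0892, edgeR adjusted p = 1.79e-06). titin-like LOC121432071 differed by 0.97 ± 0.10 and the myosin heavy chain gene LOC446191 by 0.50 ± 0.0687 (edgeR adjusted p = 1.78e-05 and 0.000232). The myogenic factor gene myoD (LOC121405904) had 24, 49.8 and 20.7 with K02288, against 13.7, 8.05 and 5.57 with axitinib and 51.1, 56.6 and 64.9 with DMSO (1.74 ± 0.50, edgeR adjusted p = 0.0443), and lost its call without replicate 2 (1.26) or replicate 3 (1.70) and in DESeq2 with the mating. In the study myoD, like myoR2, is a gene of ventral PMCs that VEGF signalling upregulates. The summed level of 11 muscle marker genes was 33038, 36331 and 33367 in K02288, against 27663, 33771 and 28121 in axitinib and 31093, 32447 and 33188 in DMSO. It was higher in K02288 than in axitinib in each mating, and its part in these differences was not tested. Most of the sum in every library came from 1 tropomyosin gene, LOC121415027, which was called higher in K02288 (0.22 ± 0.0630, edgeR adjusted p = 0.0445). Of the 8 muscle markers tested, 3 were called, all higher in K02288.

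**Figure D5:**
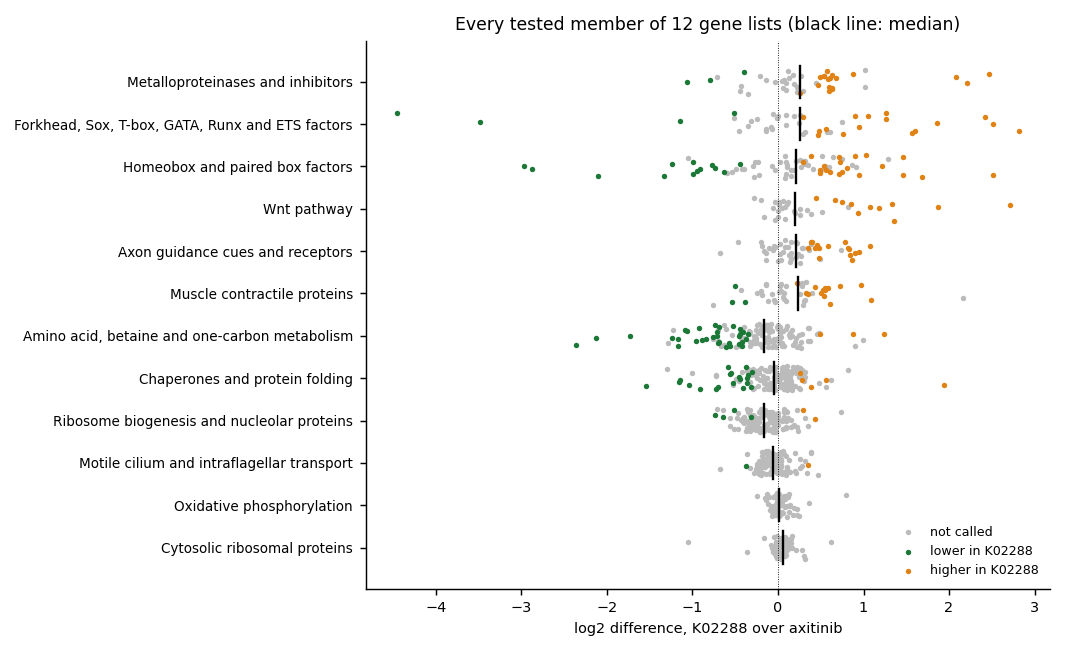
Each point is a tested member of 1 of 12 gene lists, placed by its log2 difference, K02288 over axitinib, and coloured by its call; points are spread vertically for visibility and black lines are medians. The Wnt and axon guidance lists hold orange and no green points, amino acid metabolism mostly green ones, and the ribosomal and oxidative phosphorylation lists none of either colour.

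Scavenger receptor cysteine-rich (SRCR) genes, whose products bind microbes and other ligands, held some of the widest gaps. Of 50 tested, 2 were lower and 6 higher in K02288 (16%), with 1 lower without replicate 1. SRCR LOC121417344 (LOC121417344, chromosome 6, 30152138 to 30166981) had 421, 285 and 260.2 normalized counts with K02288, against 7.35, 5.03 and 7.79 with axitinib and 665, 333 and 716 with DMSO. SRCR LOC121417363 had 122, 106 and 177, against 8.4, 2.01 and 1.11 with axitinib and 197, 150.3 and 312 with DMSO. Both were at a few counts in every axitinib library, and the log2 differences were 5.56 ± 0.23 and 5.07 ± 0.42 (edgeR adjusted p = 3.16e-09 and 1.79e-06; 6.34 for LOC121417363 without replicate 1 and 4.47 without replicate 3). The galectin-3-binding gene LOC121410506 lay in the same direction (1.27 ± 0.0821, edgeR adjusted p = 1.80e-07). A pair of L-rhamnose-binding lectin genes, LOC121414442 and LOC121414426, differed by 1.35 ± 0.0858 and 1.32 ± 0.0943 (edgeR adjusted p = 1.42e-07 and 5.15e-07). LOC121414442 had 3464, 1375 and 1877 normalized counts with K02288, against 1314, 504 and 811 with axitinib and 3682, 1535 and 1945 with DMSO, so that axitinib lay lowest in each mating and K02288 a little below DMSO. LOC121428545, ficolin-3-like by its gene description, differed by 1.26 ± 0.10 (edgeR adjusted p = 1.29e-06). The study instead lists LOC121428545 as a predicted angiopoietin 1-like gene, enriched in PMCs and lowered by axitinib only. Innate immune genes as a list, at 2 lower and 3 higher of 63 (7.94%), stood near the share of all genes, with 6 higher without replicate 2 and 1 lower without replicate 3. The summed level of 13 pigment cell markers, an immune cell type of the sea urchin larva, was 7286, 8874 and 5943 in K02288, against 12882, 8061 and 8209 in axitinib and 8423, 8639.7 and 5601 in DMSO, and its part in these differences was not tested. Most of the sum in every library came from 1 polyketide synthase gene, LOC121428528, which was not called (edgeR adjusted p = 0.0936). Of the 9 markers tested, 2 were called, both lower in K02288.

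Digestive and lysosomal hydrolases gave the gene with the lowest p among those lower in K02288. procathepsin L-like (LOC121410870, chromosome 3, 35090954 to 35098692), the precursor gene of a lysosomal protease, had 577, 406 and 566 normalized counts with K02288, against 2542, 1908 and 2456 with axitinib and 496, 478 and 486 with DMSO. Axitinib was high in all matings and K02288 and DMSO overlapped (-2.16 ± 0.0863, edgeR adjusted p = 2.25e-09). Over the list, 5 were lower and 20 higher in K02288 of 152 tested (16.4%, median 0.07), with 26 higher without replicate 2 and 9 without replicate 3. carboxypeptidase B-like LOC121408758, a gut enzyme gene, had 1515, 1115 and 1846 with K02288, against 669, 619 and 647 with axitinib and 1915, 1255 and 1584 with DMSO (1.18 ± 0.11, edgeR adjusted p = 8.36e-06). The summed level of 45 gut marker genes was from 32096 to 35105 in K02288, from 25857 to 30938 in axitinib and from 27990 to 34135 in DMSO, and its part in these differences was not tested. A pair of neighbouring genes for subtilisin-type proteases, aqualysin-1-like LOC121428841 and LOC121428840 (chromosome 15), were lower in K02288 than in DMSO and in axitinib. LOC121428841 had 2078, 3343 and 1512 normalized counts with K02288, against 7328, 10878 and 6353 with axitinib and 7622, 5524 and 3727 with DMSO, and the drugs did not overlap (-1.86 ± 0.0811, edgeR adjusted p = 3.79e-09). LOC121428840 differed by -2.10 ± 0.0957 (edgeR adjusted p = 4.75e-09). Against DMSO the axitinib libraries were also called, as higher, by 0.57 for LOC121428841 and 0.52 for LOC121428840 (edgeR adjusted p = 0.0311 and 0.0266), and the farther drug was not the same in all matings. How reads shared by near-identical copies were counted is not given in the sources used here, so values of members of such families, the SRCR, lectin and heat shock cognate genes included, are uncertain as to which copy they belong to.

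Genes of amino acid, betaine and one-carbon metabolism were the list with the most members lower in K02288, 32 of 145, against 3 higher (24.1% called, median log2 difference -0.16). For 24 of the 32, axitinib was the drug farther from DMSO. Without each mating in turn, between 23 and 28 members were lower, and without replicate 1 only 1 was higher. aldehyde dehydrogenase-like LOC121423422 (LOC121423422, chromosome 1, 76393951 to 76417607) had 128, 67.0 and 387 normalized counts with K02288, against 839, 487 and 1305 with axitinib and 251, 74.2 and 451 with DMSO. Within each mating axitinib stood above both others (-2.36 ± 0.17, edgeR adjusted p = 5.67e-07). gamma-butyrobetaine dioxygenase-like LOC121421629, for the last step of carnitine synthesis, had 750.0, 492 and 255 with K02288, against 1453, 1092 and 694 with axitinib and 496, 294 and 251 with DMSO (-1.17 ± 0.11, edgeR adjusted p = 4.56e-06). A betaine homocysteine methyltransferase gene, LOC121416265, which remakes methionine from homocysteine, had 8767, 7234 and 10482 with K02288, against 14714, 12879 and 14699.6 with axitinib and 8829, 6547 and 10280.5 with DMSO (-0.69 ± 0.0742, edgeR adjusted p = 2.59e-05). K02288 and DMSO overlapped for this gene and all axitinib libraries lay above them. kynurenine transaminase-like LOC121428663 and, outside the list, D-aspartate oxidase-like LOC121410012 differed by -0.92 ± 0.0833 and -1.67 ± 0.15 (edgeR adjusted p = 4.57e-06 and 3.79e-06).

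Transporters and other metabolic lists were called in both directions at 12.2% to 14.8%. Of 411 solute carriers and other small molecule transporters, 24 were lower and 26 higher in K02288 (15 lower without replicate 3). glycine transporter 1-like LOC121424436 (LOC121424436, chromosome 11, 19090997 to 19099845) had 8439, 8029 and 6559 normalized counts with K02288, against 2580.2, 2735 and 2188 with axitinib and 8018, 10740.0 and 8137 with DMSO (1.62 ± 0.0718, edgeR adjusted p = 4.07e-09). Axitinib lay below all K02288 and DMSO libraries. monocarboxylate transporter 2-like LOC121430638, for lactate and pyruvate, was the reverse, with 4602, 5349.8 and 4923 in K02288, against 9222, 11964 and 8872 in axitinib and 3473, 4093 and 3563 in DMSO (-1.01 ± 0.0742, edgeR adjusted p = 7.13e-07). A myo-inositol cotransporter gene, LOC121414520, differed by 2.26 ± 0.17, an organic solute transporter gene, LOC121419145, by 1.35 ± 0.11 and an organic anion transporter gene, LOC121427512, by -0.97 ± 0.0830 (edgeR adjusted p = 7.38e-07, 1.79e-06 and 2.62e-06). Cytochrome P450 and conjugating enzymes had 16 lower and 18 higher of 230 (14.8%), with 11 and 9 lower without replicates 1 and 3. cytochrome P450 2C30-like LOC121408653, an oxidase of foreign compounds, had 322, 565 and 388 normalized counts with K02288, against 25.2, 160.0 and 47.9 with axitinib and 72.8, 263 and 116 with DMSO, with K02288 above and axitinib below DMSO in each mating (2.64 ± 0.24, edgeR adjusted p = 5.47e-06; 3.30 without replicate 2). Lipid and sterol genes had 13 lower and 22 higher of 245 (14.3%), with 14 and 11 higher without replicates 1 and 3.

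Chaperones were lower in K02288 more often than higher, at 20 and 5 of 156 (16%, median -0.05), with 14, 21 and 11 lower without replicates 1, 2 and 3 and 2 and 1 higher without replicates 1 and 3. The heat shock cognate gene LOC121411173 had 3593, 1782 and 2944 normalized counts with K02288, against 6239.6, 2257 and 5724 with axitinib and 4259, 2419 and 3522 with DMSO (-0.70 ± 0.0982, edgeR adjusted p = 0.000288). peptidyl-prolyl isomerase B-like LOC121414802, a folding enzyme gene, was instead higher in K02288, with 1466, 1005 and 1346, against 726, 115 and 344 with axitinib and 1505, 925 and 1155 with DMSO (1.94 ± 0.25, edgeR adjusted p = 0.000119). Tubulin genes, at 7 lower and 5 higher of 50 (24%), included tubulin alpha-3-like LOC121413322, which had 6.73, 8.61 and 2.82 normalized counts in K02288, against 38.8, 65.4 and 41.2 in axitinib and 51.1, 37.1 and 26.2 in DMSO (-3.0 ± 0.45, edgeR adjusted p = 0.000559). Between 3 and 5 tubulin genes were lower and between 2 and 5 higher without each mating in turn. Actin remodelling genes had 5 lower and 6 higher of 113 (9.73%), with 2 lower without replicate 1 and 1 lower and 3 higher without replicate 3, and a cytoskeletal actin gene, LOC121424881, differed by 0.74 ± 0.0824 (edgeR adjusted p = 3.68e-05).

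The basic machinery of the cell set the other end. No gene for cytosolic ribosomal proteins (84 tested) or oxidative phosphorylation (72 tested) was called by edgeR or by DESeq2 with the mating, and before adjustment, at p of at most 0.05, the ribosomal list held 0 lower and 6 higher members and the oxidative phosphorylation list 1 lower and 6 higher. For comparison with this and the lists below, 9.19% of all genes tested were lower and 10.4% higher before adjustment. The zeros are not fixed for the ribosomal list, where 5 members were higher without replicate 2, 2 higher and 1 lower without replicate 3 and 1 lower without replicate 1, while oxidative phosphorylation had 1 higher without replicate 2. The median log2 differences were 0.05 and 0.01. Motile cilium genes had 1 lower and 1 higher of 134 (1.49%; 0 higher without replicates 1 and 3 and 2 without replicate 2), with 18 lower and 7 higher before adjustment, and cell cycle genes 4 and 6 of 184 (5.43%), with 0 lower without replicates 1 and 3. The summed level of 11 ciliated ectoderm markers was higher in every axitinib library than in any K02288 library, at 29728 to 33211 in K02288, 34120 to 35172 in axitinib and 28729 to 34297 in DMSO, and its part in these differences was not tested. Of the 11, only tektin-3-like LOC121423323 was called, as lower in K02288 (-0.37 ± 0.0724, edgeR adjusted p = 0.00378). Ribosome biogenesis genes had 4 lower and 2 higher of 133 (4.51%), with a median of -0.16, and 24 of them were lower, against 2 higher, before adjustment (p of at most 0.05). The number lower was 12 without replicate 2 and 1 without replicate 3, and the number higher was 0 without either replicate 1 or replicate 3. nucleolin-like LOC121427648, for a nucleolar protein of ribosome assembly, had 1920.2, 2112 and 1503 normalized counts with K02288, against 2951, 2540.0 and 3087 with axitinib and 1760.0, 2181 and 1748 with DMSO (-0.64 ± 0.11, edgeR adjusted p = 0.00173).

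Genes outside these lists with wide gaps included a glycoprotein hormone gene. GPHB5-like (LOC121419050, chromosome 7, 32821980 to 32833728), for a hormone subunit, had 826, 1057 and 629 normalized counts with K02288, against 159, 188 and 156 with axitinib and 440.3, 548 and 336 with DMSO. K02288 lay above and axitinib below DMSO in each mating, without overlap between the drugs (2.30 ± 0.12, edgeR adjusted p = 1.79e-08).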

How the data were processed

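The authors deposited, for all 9 libraries, gene counts and FPKM values of poly-A RNA; per the labels the submitters' notes name CASAVA 1.8, HISAT2, DESeq and DESeq2. The counting tool and its treatment of shared reads are not given in the sources used here. The deposited counts were tested in edgeR 4.0.16 (R 4.3.3) by the quasi-likelihood test with TMM normalization and filterByExpr by treatment, on the 6 drug libraries with the mating as a term, Benjamini-Hochberg adjusted over the 16197 genes tested and called under 0.05. Normalized counts are counts divided by TMM-scaled library size. Each ± is the SE implied by the edgeR test, the log2 difference over the root of its F statistic. That statistic uses a variance moderated over all genes, so the ± does not measure the spread between the 3 matings. For the BMP2-like gene LOC121432040, at 2.60 ± 0.20, the log2 ratios within the 3 matings were 3.07, 1.68 and 3.02. The deposited FPKM served for 1 alternative, limma 3.58.1 on log2(FPKM + 1). DESeq2 1.42.0 was another.

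The labels give replicate numbers, and the study states that its 3 replicate sets came from separate matings. The replicate number was therefore taken as the mating number. Deviations of the same-numbered K02288 and axitinib libraries from their treatment means correlated at 0.719 to 0.750 (3 pairs), so the mating was kept as a block. The 6 other pairs ran from -0.419 to -0.327. Those negative values add no separate evidence, since deviations from a mean of 3 libraries force them once the same-numbered pairs are positive. The 3 libraries of a treatment come from separate matings.

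Named genes were the 15 per direction with the lowest p (described, same direction in all 3 matings), 45 genes picked from the study's text and supplements and from the same pathways, up to 4 called members per list with the lowest p, and up to 2 uncharacterized genes per direction. The members and lists were chosen with earlier results of these data known. Lists were drawn by words in gene descriptions, and the PMC list from published single-cell data. A drug was the side that moved if its mean log2(normalized count + 1) lay farther from DMSO; DMSO was in between if it lay between the drugs and neither distance exceeded the other 2 times. Intervals cover counting error only. The scripts were tested on simulated data. Promoter and protein sequences were not used here.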

Additional observations from a re-analysis of the deposited data

How the results depend on the processing

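Leaving the mating (the replicate block) out mattered most: 25 genes were called (5 lower and 20 higher in K02288) and 15 of the 501 list members, and DESeq2 without the mating called 178 (46 lower, 132 higher; 96 list members). With the mating, DESeq2 called 882 genes (321 lower) and limma on FPKM 871 (325 lower). At the unadjusted p of at most 0.05, 3170 genes passed (1488 lower, 1682 higher; 983 list members). Without each mating in turn, from 894 to 1377 genes were called, from 332 to 526 of them lower and from 562 to 851 higher, with the fewest without replicate 3, and from 348 to 513 list members. Other scaling, filters, all 9 libraries in the fit, and mitochondrial genes left out, an alternative chosen after seeing the data, gave from 1240 to 1816 calls. The genes assigned a side were 89 for K02288, 386 for axitinib and 28 in between when all 3 matings had to agree. Of the named genes, 123 lost their call without the mating, 12 in DESeq2 with it, 13 in limma, 7 with all 9 libraries, and 11, 5 and 18 without replicates 1, 2 and 3. No called gene changed direction in the alternatives that tested it. With at least 10 counts in each library 12 of the named genes, nodal, lefty and pappalysin-1-like among them, were not tested, nor was 1 without replicate 2. Among genes not called, smad1/5/8 (LOC121408094) ran from -0.34 to 0.076 without each replicate in turn, sm30f (LOC121406359) from -0.25 to 1.14 and was -0.20 without the block in either tool, mmp16 (LOC121409096) ran from -0.46 to 0.10 and p58b (LOC121425019) from -0.011 to 0.11. The cause was not tested. Depth limits genes near the floor of 3 counts, such as nodal in K02288.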

Other observations

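The gene with the largest negative log2 difference was the uncharacterized gene LOC121431768 (chromosome 18, 23845549 to 23891302), which follows pitx on the chromosome. It had 0, 0.960 and 0 normalized counts with K02288, against 238, 179 and 135 with axitinib and 104, 82.2 and 52.4 with DMSO. K02288 held 1 count in all, against 526 with axitinib, so the fitted value of -8.70 depends on the prior count and was -6.32 with a prior count of 2 (edgeR adjusted p = 1.79e-08; -8.04 without replicate 1 and -10.52 without replicate 2). The axitinib to K02288 ratio of summed counts was 582, with a 95% counting interval from 104 to 23046. Other uncharacterized genes were low in axitinib. LOC121411681 had 929, 532 and 788 normalized counts with K02288, against 135, 104 and 82.4 with axitinib and 964, 463 and 630.4 with DMSO (2.79 ± 0.15, edgeR adjusted p = 2.15e-08). LOC121424795 had 362, 656 and 918 with K02288, against 68.2, 117 and 116 with axitinib and 539, 719.5 and 1479.7 with DMSO (2.64 ± 0.14, edgeR adjusted p = 1.79e-08). Uncharacterized genes made up 300 of the 1321 called (22.7%), against 3442 of the 16197 tested (21.3%).

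Called genes had an adjacent called gene more often than other genes did, though most had none. Of the 1321, 241 (18.2%) had an adjacent tested gene called in the same direction, a share without a counterpart among genes not called. An adjacent called gene in either direction was found for 25.2% of called and 14.6% of other genes, with no test. The longest run, named after its values were seen, held Wnt-9a-like, Wnt-1, Wnt-6-like and probable Bax inhibitor 1 on chromosome 1 (78290906 to 78459006), all higher in K02288. The share of genes called ran from 5.63% on chromosome 8 to 11.7% on chromosome 18.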
